A study of Mus musculus with 6 samples.

Results

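Mature beta cells keep a set of widely expressed genes at very low levels, and 34 of these so-called disallowed genes were followed here in isolated islets of 8-week-old C57BL/6 mice. The 34 were a list of genes known for their low level in beta cells, sorted here by what they do. All 34 were found among the 34745 genes of the deposited table, and 23 of them reached at least 1 FPKM (fragments scaled to transcript length and library depth) in at least 2 libraries, the limit used for testing. Poly-A RNA of whole islets was sequenced in 6 libraries, 2 in each of 3 groups. WT islets came from wild-type mice. KO islets came from βRapKO mice, in which Rptor, encoding the Raptor subunit of the nutrient-sensing kinase complex mTORC1, is deleted in beta cells. KO+DNMT3A islets carried the same deletion and were given the de novo DNA methyltransferase Dnmt3a, written LvDnmt3a in the series design. No control-vector group is named in the labels, although GFP appears in the names under which WT and KO values were deposited. The Cre driver is not given in the sources used here, nor whether replicates are different mice, so each p-value reflects library-to-library spread that may be technical.

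Beta cells couple insulin secretion to glucose by sending nearly all pyruvate into mitochondria. Lactate dehydrogenase A (Ldha), which turns pyruvate into lactate, and the monocarboxylate transporter MCT1 (Slc16a1), which carries pyruvate and lactate across the plasma membrane, are kept low there, as is hexokinase 1 (Hk1), a hexokinase with a high affinity for glucose. DNA methylation placed by DNMT3A at promoters after birth is among the known ways in which such genes are silenced, together with repressive histone marks and microRNAs. Many of the other listed genes are ordinary genes of fibroblasts, vessels and blood cells, all of which are present in isolated islets.

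The 250 bases before the start sites of Ldha, Slc16a1 and Hk1 are shown because they are the members that bear most directly on glucose use and because the CG pairs in them, printed in capitals, are what a DNA methyltransferase acts on. The sequences are from RefSeq on GRCm38.p6 and run 5′ to 3′ on the strand of the gene, Ldha at chr7:46845554-46845803 (plus strand), Slc16a1 at chr3:104638414-104638663 (plus strand) and Hk1 at chr10:62379909-62380158 (minus strand).
Ldha: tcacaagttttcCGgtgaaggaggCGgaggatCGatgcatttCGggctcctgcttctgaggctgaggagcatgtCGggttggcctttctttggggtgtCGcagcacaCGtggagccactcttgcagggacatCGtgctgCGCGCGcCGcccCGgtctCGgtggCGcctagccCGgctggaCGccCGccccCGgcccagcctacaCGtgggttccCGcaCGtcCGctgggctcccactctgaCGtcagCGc
Slc16a1: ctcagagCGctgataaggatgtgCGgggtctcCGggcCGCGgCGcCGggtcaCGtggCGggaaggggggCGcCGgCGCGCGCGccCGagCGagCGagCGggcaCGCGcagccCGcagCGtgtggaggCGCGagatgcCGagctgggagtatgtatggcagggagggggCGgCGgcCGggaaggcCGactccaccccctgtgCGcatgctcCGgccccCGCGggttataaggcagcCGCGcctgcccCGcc
Hk1: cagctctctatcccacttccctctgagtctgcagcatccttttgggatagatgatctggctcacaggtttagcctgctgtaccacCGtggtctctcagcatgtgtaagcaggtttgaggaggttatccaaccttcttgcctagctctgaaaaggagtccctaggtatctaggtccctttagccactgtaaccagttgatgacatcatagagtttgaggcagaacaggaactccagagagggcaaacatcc
The 3 windows differed widely. That of Slc16a1 held 37 CG pairs at 76.4% G and C, that of Ldha 25 CG pairs at 67.2%, and that of Hk1 a single CG pair at 49.6%. A second start site of Hk1 had 14 CG pairs and a second start site of Ldha had 9. The RefSeq table matched 27 of the 34 members with 36 windows, some of which overlap where a gene has neighbouring start sites. The median member window held 10 CG pairs, against 15 in the 11875 windows of tested genes and 6 in all 32851 windows. The member windows include those of members that were not tested, so they lay between these 2 backgrounds. The members ranged from 1 pair (Hk1 and the second site of Mgst1) to 44 pairs (Yap1 and the first site of Lmo4), and 9 of their 36 windows held 5 or fewer, against 16.7% of the windows of tested genes. The letters ACGTG, the core recognised by hypoxia-inducible factors, were searched on both strands, where each CACGTG counts on both. They occurred in 5 member windows, at Ldha, Slc16a1, Yap1 and 2 overlapping windows of Lmo4. The share was 21.8% of the windows of tested genes and 16.6% of all windows. The longer CACGTG stood in 3 member windows, of Ldha, Slc16a1 and Yap1, against 8.36% of the windows of tested genes and 6.02% of all windows. These are letters in the reference sequence, and methylation itself was not measured in these libraries.

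**Figure D1:**
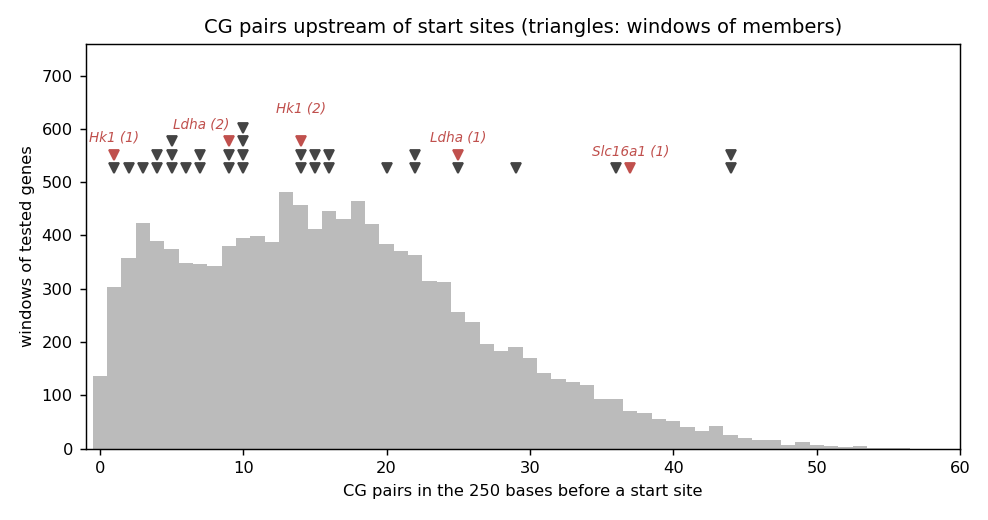
Number of CG pairs in the 250 bases before a start site (x axis) against the number of windows of tested genes (y axis, grey bars), with 1 triangle for each of the 36 windows of the listed genes. The windows of Slc16a1 (37 pairs) and the first site of Ldha (25) lie to the right of the tested-gene median of 15, while the first site of Hk1 has 1 pair.

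The libraries were shallow and of unequal make-up. The steps between FPKM values of genes with a single annotated transcript imply from 244636 fragments in WT replicate 1 to 1920991 in KO+DNMT3A replicate 1, so that for a transcript of 2 kb each fragment adds 2.04 FPKM in the former and 0.26 in the latter. Ins1, encoding insulin, stood at 647 FPKM in WT replicate 1, at 416 in KO replicate 2, and at 65360 to 119077 in the other 4 libraries, so that a WT and a KO library were poor in beta cell transcripts. Gcg, encoding glucagon, was 1197 to 2454 FPKM in all 6. Rptor was at 0.80 and 1.06 FPKM under the label WT, at 0.38 and 1.51 under KO, and at 0.71 and 1.93 under KO+DNMT3A. In the same order Dnmt3a was at 2.94 and 4.43 FPKM, 3.19 and 2.5, and 3.62 and 3.80. Neither gene separated the groups as their labels describe, but values this low, in shallow libraries of whole islets, cannot test the labels. Every direction below is between libraries as labelled. In whole-islet RNA, fewer cells of a type and less RNA per cell cannot be told apart.

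The listed genes spanned a wide range of levels in these whole islets. The mean over the 6 libraries was at least 10 FPKM for 5 genes, from 1 to 10 FPKM for 17 and under 1 FPKM for 12. Ldha was the highest (mean 19.2 FPKM), followed by Zfp36l1 (17.5), Fcgrt (11.7), Arhgdib (10.8) and Oat (10.2), whose ranges over libraries overlap one another. At the other end, Itih5, Fam13a, Fgf1, Cxcl12, Dapk2 and Arap2 stayed under 1 FPKM in every library. Of the 34, 25 were above 0 in all libraries, and the number at 0 was 7 in the shallow WT replicate 1 and 1 to 5 in the others.

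The listed genes differed between libraries of the same group. Among the 23 tested members, 15 (65.2%) had their highest value in WT replicate 1, against 17.1% of all tested genes. In KO+DNMT3A replicate 2, 10 of 23 (43.5%) had their lowest value, against 9.77% of all tested genes. Replicate 1 exceeded replicate 2 for 21 of 23 members in WT and for 20 of 23 in KO+DNMT3A, against 33.3% and 54.1% of all tested genes. In KO it did so for 10 of 23, against 58.7%. Over all 34 members these counts were 26, 29 and 15. The median size of the difference between replicates was 1.18 in WT, 0.65 in KO and 1.01 in KO+DNMT3A on the scale of log2(FPKM + 1), against 0.78, 0.66 and 0.58 over all tested genes, so the members' spread was like that of other genes in KO.

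**Figure D2:**
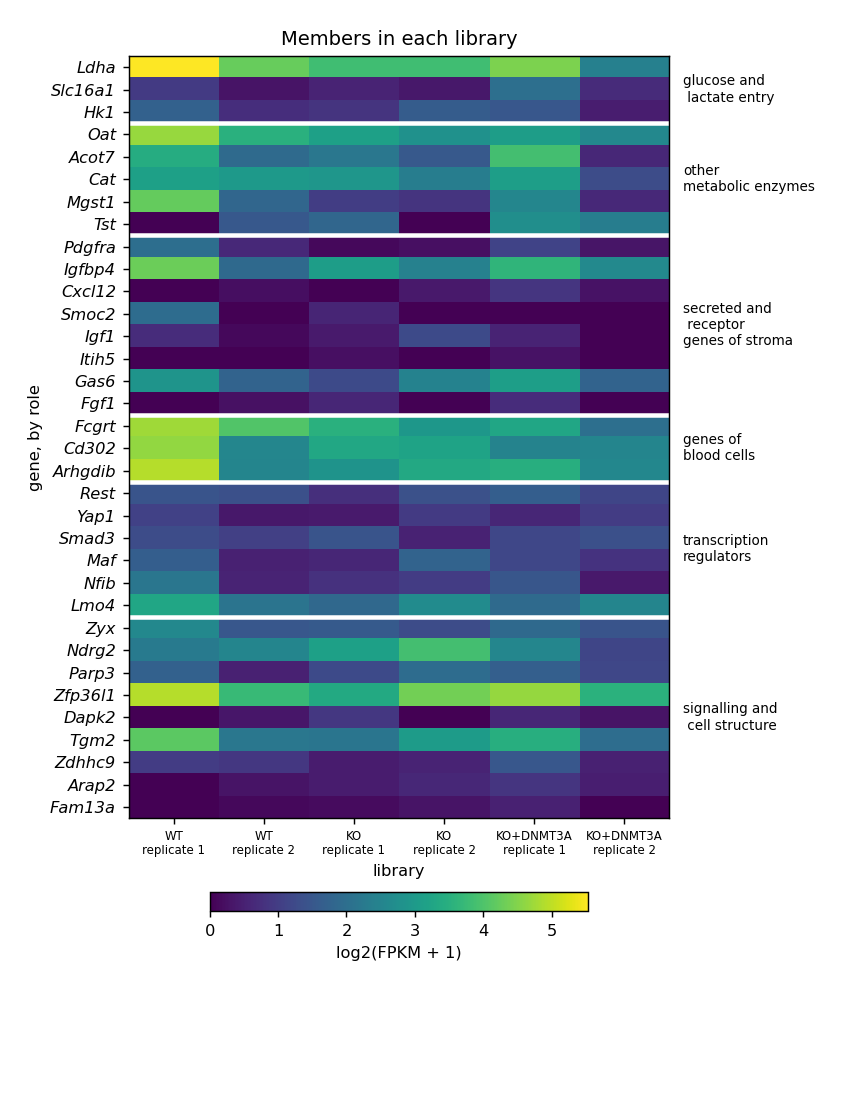
Levels of the 34 listed genes as log2(FPKM + 1) (colour) in the 6 libraries (columns), with the genes in rows grouped by role. WT replicate 1 is the highest library for 15 of the 23 tested members and KO+DNMT3A replicate 2 the lowest for 10.

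Among the genes of glucose and lactate entry, Ldha was the most abundant. Ldha (chr7:46841475-46855627 on GRCm38, plus strand) was at 45.4 and 18.1 FPKM in WT, at 13.3 and 13.4 in KO, and at 20.8 and 4.29 in KO+DNMT3A. Both KO libraries lay below both WT libraries and close to each other, while the KO+DNMT3A libraries lay on either side of them. The log2 difference of KO from WT was -1.05 (SE 0.80), and -0.41 without WT replicate 1. For KO+DNMT3A against KO it was -0.42 (SE 0.80), and leaving out single libraries moved it from -1.44 to 0.60. The annotation holds 2 processed pseudogenes of Ldha, and reads that match both could have been assigned to either, so its level is uncertain to that extent.

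Levels of the partner isoenzymes set Ldha in proportion. Ldhb, encoding the heart-type subunit that favours the conversion of lactate to pyruvate, was at 10.4 and 14.1 FPKM in WT, at 6.41 and 11.1 in KO, and at 6.61 and 8.64 in KO+DNMT3A. Ldha made up 81.4% and 56.3% of the summed FPKM of both genes in WT, 67.5% and 54.8% in KO, and 75.8% and 33.2% in KO+DNMT3A. The share was thus highest in WT replicate 1 and KO+DNMT3A replicate 1, lowest in KO+DNMT3A replicate 2, and overlapping between all 3 groups. Pkm, encoding pyruvate kinase, the enzyme before lactate dehydrogenase, was far more abundant, at 121 to 321 FPKM.

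Slc16a1 was near the limit of detection in all but 1 library. Slc16a1 (chr3:104638668-104658462, plus strand) was at 0.92 and 0.23 FPKM in WT, at 0.48 and 0.29 in KO, and at 3.06 and 0.61 in KO+DNMT3A. It has a single annotated transcript, so these values could be read back as 1, 1, 3, 1, 26 and 3 fragments. The 26 fragments of KO+DNMT3A replicate 1 give an exact 95% Poisson interval of 2.0 to 4.48 FPKM, which covers counting error only. That interval lies above those of WT replicate 2 (0.0059 to 1.29 FPKM), KO replicate 1 (0.098 to 1.39), KO replicate 2 (0.0073 to 1.61) and KO+DNMT3A replicate 2 (0.125 to 1.77). The single fragment of WT replicate 1 allows up to 5.15 FPKM, so a difference from that library was not detectable at this depth. Both KO+DNMT3A libraries were above both KO libraries, and neither of those groups was separate from WT. Slc16a3, encoding MCT4, the lactate exporter of glycolytic cells, was 0.41 to 2.70 FPKM, and exceeded Slc16a1 in both WT and both KO libraries. In KO+DNMT3A Slc16a1 was 2.45 and 1.48 times Slc16a3, the latter from 3 fragments of Slc16a1. Slc16a3 was at 0.41 FPKM in that library, KO+DNMT3A replicate 2, where 1 fragment on a 2 kb transcript is worth 0.45 FPKM.

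Hk1 (chr10:62268855-62379908, minus strand) was at 2.31 and 0.66 FPKM in WT, at 0.79 and 2.07 in KO, and at 1.85 and 0.36 in KO+DNMT3A. Each group held a high and a low library, and the log2 difference of KO from WT was -0.00 (SE 0.65). Its higher values stood in WT replicate 1 and KO replicate 2, the insulin-poor libraries, and in KO+DNMT3A replicate 1. The part of cell make-up in its level was not tested.

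**Figure D3:**
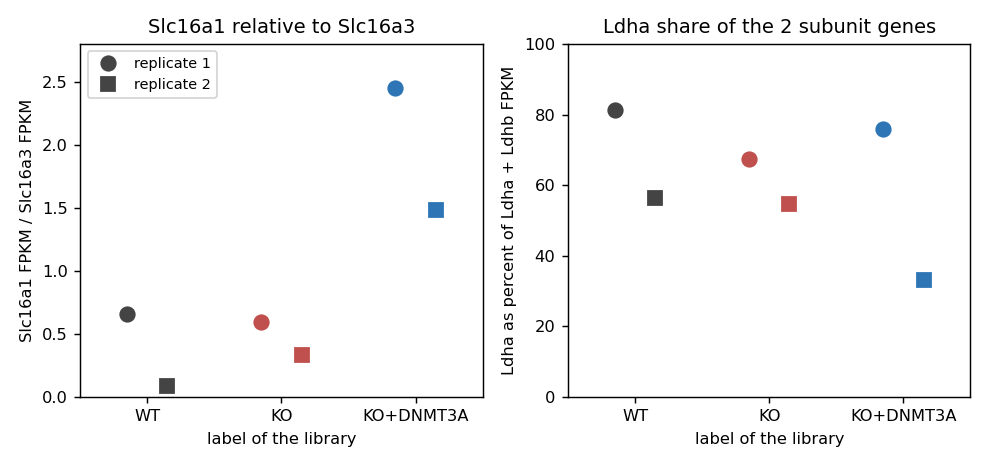
Ratio of Slc16a1 to Slc16a3 FPKM (left) and share of Ldha in the summed FPKM of Ldha and Ldhb in percent (right), each with 1 point per library of the 3 groups. The ratio is 2.45 and 1.48 in KO+DNMT3A and at most 0.66 elsewhere. It rests on 1 to 3 Slc16a1 fragments in all but KO+DNMT3A replicate 1, and on Slc16a3 levels of 0.41 to 2.70 FPKM. The Ldha share runs from 33.2% to 81.4% with overlapping groups.

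The other enzymes of the list act in amino acid, fatty acid, peroxide and sulphur metabolism. Oat, the mitochondrial ornithine aminotransferase, was at 24.6 and 10.5 FPKM in WT, at 7.81 and 5.95 in KO, and at 7.49 and 4.98 in KO+DNMT3A. All 4 libraries labelled KO or KO+DNMT3A were below both WT libraries. The log2 difference from WT was -1.13 (SE 0.60) in KO and -1.27 (SE 0.60) in KO+DNMT3A, and without WT replicate 1 these were -0.55 and -0.69. Mgst1, a microsomal glutathione transferase that detoxifies lipid peroxides, was at 17.7 and 2.54 FPKM in WT, at 1.01 and 0.79 in KO, and at 4.82 and 0.55 in KO+DNMT3A. Both KO libraries lay below both WT libraries, with the lowest log2 difference of any member, -2.10 (SE 0.92), which leaving out WT replicate 1 moved to -0.90 and leaving out WT replicate 2 to -3.30. Read on its longest transcript, Mgst1 had only about 5.0 and 2.9 fragments in WT and 1.7 and 0.7 in KO. Cat, encoding the peroxisomal enzyme catalase, was at 7.82 and 6.88 FPKM in WT, at 6.48 and 4.09 in KO, and at 7.64 and 1.43 in KO+DNMT3A. Its WT and KO libraries did not overlap, but the gap between them was small, at a log2 difference of -0.43 (SE 0.69), and WT replicate 1 held about 5.0 fragments on its longest transcript. Acot7, a cytosolic acyl-CoA thioesterase that frees long-chain fatty acids from coenzyme A, was at 9.76 and 2.76 FPKM in WT, at 3.56 and 1.91 in KO, and at 13.8 and 0.53 in KO+DNMT3A. Its highest and lowest values thus fell in the same group.

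Tst was the only tested member with both KO+DNMT3A libraries above the other 4. Tst encodes rhodanese, the mitochondrial thiosulfate sulfurtransferase, and was at 0 and 1.87 FPKM in WT, at 2.56 and 0 in KO, and at 5.70 and 4.08 in KO+DNMT3A. The log2 difference of KO+DNMT3A from KO was 1.63 (SE 0.79), and 0.71 without KO replicate 2, and that from WT was 1.78 (SE 0.79), and 1.02 without WT replicate 1. The 2 libraries at 0 were the insulin-poor ones, WT replicate 1 and KO replicate 2. They were also the 2 shallowest, where 1 fragment on a 2 kb transcript is worth 2.04 and 0.64 FPKM. A low level of Tst could therefore go undetected there, above all in WT replicate 1. On chromosome 15 the related enzyme gene Mpst, encoding mercaptopyruvate sulfurtransferase, starts 509 bases from the start of Tst and runs the other way. Mpst was listed at 0 in WT and in KO replicate 1, and was 2.55 FPKM in KO replicate 2 and 3.80 and 2.37 in KO+DNMT3A.

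Of the secreted and receptor genes typical of stroma, 3 of 8 passed the limit for testing. Pdgfra, the receptor for platelet-derived growth factor on fibroblasts and on juvenile beta cells, was at 3.0 and 0.55 FPKM in WT, at 0.09 and 0.17 in KO, and at 1.15 and 0.24 in KO+DNMT3A. Both KO libraries lay below the other 4. Pdgfra passed the limit through WT replicate 1 and KO+DNMT3A replicate 1 alone, so some difference between its groups was built in by the limit. The log2 difference was -1.14 (SE 0.66) for KO against WT and 0.53 (SE 0.66) for KO+DNMT3A against KO, and without WT replicate 1 the former was -0.45. Igfbp4, which binds insulin-like growth factors, was 18.7 and 2.69 FPKM in WT, and 4.40 to 11.3 in the other 4 libraries. Gas6, the ligand of the TAM receptors, was at 6.30 and 2.38 FPKM in WT, at 1.35 and 4.45 in KO, and at 7.63 and 2.42 in KO+DNMT3A. Neither gene separated any groups. The others were near 0. Smoc2, a matricellular protein, was 2.89 FPKM in WT replicate 1, 0.50 in KO replicate 1 and 0 in the remaining 4. The growth factor Igf1 reached 1.36 FPKM in KO replicate 2, and the growth factor Fgf1 0.62 in KO+DNMT3A replicate 1. The chemokine Cxcl12 was at 0 and 0.16 FPKM in WT, at 0 and 0.30 in KO, and at 0.80 and 0.21 in KO+DNMT3A, which put KO+DNMT3A above WT at levels near 0. Itih5, which stabilises the matrix polymer hyaluronan, had 2 fragments in KO replicate 1, 3 in KO+DNMT3A replicate 1 and none in the others, where 3 fragments would be worth up to 1.55 FPKM, in WT replicate 1.

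All 3 genes typical of blood cells were tested. Fcgrt, encoding the neonatal Fc receptor that recycles immunoglobulin G and is high in macrophages, was at 25.9 and 15.4 FPKM in WT, at 10.5 and 6.63 in KO, and at 8.69 and 3.09 in KO+DNMT3A. All 4 libraries labelled KO or KO+DNMT3A were below both WT libraries, while KO and KO+DNMT3A overlapped. The log2 difference from WT was -1.16 (SE 0.64) in KO and -1.74 (SE 0.64) in KO+DNMT3A, and when single libraries were left out the latter ranged from -2.36 to -1.11. Cd302, a C-type lectin of myeloid cells, was at 23.9 and 4.80 FPKM in WT, at 9.01 and 8.23 in KO, and at 4.56 and 4.70 in KO+DNMT3A. Both KO+DNMT3A libraries lay below the other 4, but WT replicate 2 was almost at their level. The log2 difference from KO was -0.77 (SE 0.73) and that from WT -1.09 (SE 0.73), the latter being -0.04 without WT replicate 1. Arhgdib, a regulator of small GTPases in blood cells, was 29.3 and 4.77 FPKM in WT and 4.91 to 10.1 elsewhere, with no separate groups.

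Markers of other cell types also differed between the libraries. Summed over 10 macrophage markers, the level was at 541 and 510 FPKM in WT, at 517 and 327 in KO, and at 238 and 160 in KO+DNMT3A. In KO+DNMT3A all 10 macrophage markers had lower means than in either other group, and none was at 0 in all libraries. C1qb, a complement gene of tissue macrophages, was at 93.9 and 70.8 FPKM in WT, at 83.1 and 60.1 in KO, and at 21.1 and 23.0 in KO+DNMT3A. The WT sums were close to each other, with Lyz2 at 239 and 234 FPKM, but single markers differed. Adgre1 was at 9.05 and 0.85 FPKM in WT and Csf1r at 6.97 and 1.58. Of the 10 markers, 6 had their highest value of all libraries in WT replicate 1 and 2 in WT replicate 2. Cd302 and Arhgdib were several times higher in WT replicate 1 than in WT replicate 2. The 8 stroma markers summed to 1101 FPKM in WT replicate 1, 378 in KO+DNMT3A replicate 1 and 160 to 282 in the other 4. Of these 8, 6 were highest in WT replicate 1, Rgs5 in KO replicate 1 and Pdgfrb in KO replicate 2. The 8 duct markers summed to 2640 FPKM in WT replicate 1, 1267 in KO+DNMT3A replicate 1 and 275 to 401 in the others, with Cftr at 0 throughout. The WT replicate 1 sum was mostly Spp1 (1510 FPKM) and Mmp7 (639), and 3 of the 8 were highest in that library and 4 in KO+DNMT3A replicate 1. Krt19, a keratin of duct cells, stood at 64.8 and 94.6 FPKM there and at 1.10 to 4.40 elsewhere, whereas Krt18 was 162 to 307 FPKM over all 6. The 8 metabolic members had their highest sums in the same libraries, at 108.5 FPKM in WT replicate 1, 65.2 in KO+DNMT3A replicate 1 and 16.8 to 43.6 in the others. Singly, 5 of the 8 were highest in WT replicate 1 and 3, Slc16a1, Acot7 and Tst, in KO+DNMT3A replicate 1, while Tst was at 0 in WT replicate 1. Beta cell markers summed to 1583 FPKM in WT replicate 1 and 1684 in KO replicate 2, and the metabolic members to 28.5 in the latter. Endothelial markers summed to 19.97 to 52.3 FPKM. Of 6 acinar markers 4 were at 0 in every library, and of 5 lymphocyte markers 3. The part of cell make-up in the differences of Ldha, Oat, Cat, Mgst1, Pdgfra, Fcgrt and Cd302 was not tested.

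**Figure D4:**
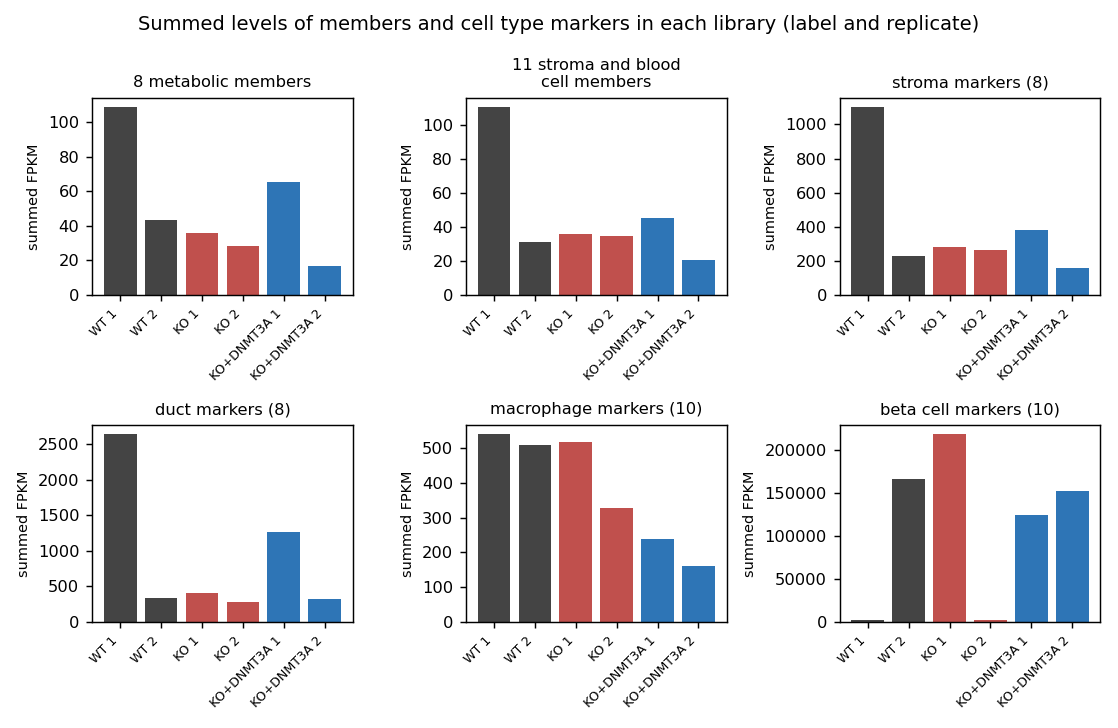
Summed FPKM of the metabolic members, of the members typical of stroma and blood, and of marker lists of stroma, duct, macrophage and beta cells (y axes, from 0), with 1 bar per library. The metabolic members are highest in WT replicate 1 (108.5 FPKM) and KO+DNMT3A replicate 1 (65.2 FPKM), the same libraries in which stroma markers (1101 and 378 FPKM) and duct markers (2640 and 1267 FPKM) are highest.

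The transcription regulators of the list were low and overlapped between groups. Rest, the repressor of neuronal genes in non-neuronal cells, was at 1.70 and 1.56 FPKM in WT, at 0.68 and 1.60 in KO, and at 2.16 and 1.24 in KO+DNMT3A. KO replicate 1 was the lowest, and the log2 differences lay between -0.33 and 0.35, each smaller than its SE. Smad3, which carries TGF-beta signals to the nucleus, was 0.45 to 1.71 FPKM, with both extremes in KO. Maf, a large Maf factor related to the beta cell factor Mafa, was 2.13 FPKM in WT replicate 1, 2.41 in KO replicate 2 and 0.43 to 1.25 in the other 4, so that its higher values fell in the insulin-poor libraries. Nfib, a nuclear factor I protein, was 3.51 FPKM in WT replicate 1 and 0.31 to 1.81 elsewhere. Lmo4, a LIM-domain cofactor, was 8.62 FPKM in WT replicate 1 and 2.64 to 5.40 elsewhere. Yap1, the Hippo pathway coactivator that is absent from mature beta cells, was 0.28 to 1.10 FPKM and was not tested.

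Among the genes of signalling and cell structure, Ndrg2 stood apart. Ndrg2, a cytoplasmic protein of the NDRG family that is high in glia, was at 3.79 and 4.76 FPKM in WT, at 7.80 and 13.7 in KO, and at 4.83 and 1.24 in KO+DNMT3A. Both KO libraries were above the other 4. The log2 difference was 1.11 (SE 0.63) for KO against WT and -1.65 (SE 0.63) for KO+DNMT3A against KO, and when single libraries were left out these ranged from 0.75 to 1.48 and from -2.34 to -0.96. Both comparisons use the same KO libraries and so are not separate evidence. The 6 Schwann cell markers summed to 89.5 FPKM in KO replicate 2, where Ndrg2 was highest. They summed to 18.9 in KO replicate 1 and to 20.2 and 33.7 in WT. For 1 of the 6, Sox10, both KO libraries were above both WT libraries, at 1.55 and 5.67 against 0 and 0.76 FPKM. The part of Schwann cells in the level of Ndrg2 was not tested.

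The remaining genes of this class had overlapping groups among those tested. Zfp36l1, which speeds the decay of AU-rich mRNAs, was at 29.1 and 12.3 FPKM in WT, at 9.27 and 19.5 in KO, and at 24.1 and 10.6 in KO+DNMT3A, and the annotation holds a processed pseudogene of it. Tgm2, the tissue transglutaminase that cross-links proteins, was 16.7 FPKM in WT replicate 1 and 2.96 to 10.1 elsewhere. Its exons overlap those of Rprd1b on the opposite strand by 370 bases, and Rprd1b was 1.85 to 9.09 FPKM, so reads of the pair may be mixed. Zyx, a focal adhesion protein, was 1.43 to 5.01 FPKM, and Parp3, a mono-ADP-ribosyltransferase of DNA repair, was 0.43 to 2.87 FPKM. Of the 4 untested genes here, Zdhhc9, a palmitoyltransferase of Ras proteins, was at 0.98 and 0.86 FPKM in WT, at 0.34 and 0.46 in KO, and at 1.81 and 0.43 in KO+DNMT3A. Arap2, a GTPase-activating protein for Arf6, was at 0 and 0.22 FPKM in WT, at 0.35 and 0.54 in KO, and at 0.81 and 0.38 in KO+DNMT3A, with both other groups above WT. Fam13a was at 0 and 0.09 FPKM in WT, at 0.13 and 0.23 in KO, and at 0.42 and 0 in KO+DNMT3A, with KO above WT. The groups of these genes lay apart at levels of few fragments. The kinase gene Dapk2 was at most 0.87 FPKM.

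The comparison of KO with WT asks how these genes stand when mTORC1 is lost from beta cells. None of the 23 tested members passed an adjusted p of 0.05 in the limma fit with Benjamini-Hochberg adjustment (smallest adjusted p = 1), as was so for 0 of 13233 genes (0%). At an unadjusted p under 0.05 there were 0 members and 240 genes (1.81%). Means were lower in KO for 19 members and higher for 4, with a median log2 difference of -0.46 against 0.03 over all tested genes. Both KO libraries were below both WT libraries for 6 of 23 members (26.1%), Ldha, Oat, Cat, Mgst1, Pdgfra and Fcgrt, against 10.5% of tested genes. For Pdgfra some of this difference was built in by the limit for testing. With quantile normalization the count was 4 of 23 (17.4%), without Ldha and Pdgfra, against 11.2%. Both KO libraries were above both WT libraries for 1 of 23 (4.35%), Ndrg2, against 9.36%. Metabolic members had a median of -0.80 (6 of 7 lower), members typical of stroma and blood one of -0.55 (6 of 6 lower) and the remaining 10 one of -0.38 (7 lower). The balance rested on WT replicate 1. Without it the median was 0.084, with 12 members higher and 11 lower, while all tested genes had a median of -0.16. Without both insulin-poor libraries it was 0.06. The differences of Ldha, Oat, Cat, Mgst1, Pdgfra and Fcgrt then ran from -0.81 for Mgst1 to -0.07 for Cat, each between single libraries of WT and KO. Their negative sign was fixed in advance, because these genes were picked for having both KO libraries below both WT libraries.

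The comparison of KO+DNMT3A with KO asks whether added Dnmt3a brings the genes down in islets labelled as lacking Rptor. Again 0 of 23 members and 0 of 13233 genes (0%) passed in limma (smallest adjusted p = 1). An unadjusted p under 0.05 was reached by 1 member, Ndrg2, and by 147 genes in all (1.11%). Means were higher for 12 members and lower for 11. The median log2 difference of the members was 0.06, against 0.19 over all tested genes, of which 68.2% had higher means in KO+DNMT3A. Quantile normalization or median scaling took that shift of all genes to -0.01 and -0.00, and the members' median to -0.11 and -0.09. Groups did not overlap for 2 of 23 members upward (8.7%), Tst and Pdgfra, against 17.2% of tested genes, and for 2 downward (8.7%), Cd302 and Ndrg2, against 5.43%. Here too the limit for testing built in some of the difference of Pdgfra. Slc16a1, which was not tested, was also higher in both KO+DNMT3A libraries. However, KO+DNMT3A replicate 2 and KO replicate 1 held 3 fragments each, at 0.61 and 0.48 FPKM. Of the 7 tested metabolic members 4 had lower means, with a median of -0.13.

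For KO+DNMT3A against WT, 0 of 23 members and 0 of 13233 genes (0%) passed in limma (smallest adjusted p = 0.997). By unadjusted p under 0.05 there was 1 member, Fcgrt, among 379 genes (2.86%). Means were lower for 17 members and higher for 6, with a median of -0.42 against 0.23 over all tested genes. Both libraries were below both WT libraries for 3 of 23 members (13%), Oat, Fcgrt and Cd302, against 7.87% of tested genes, and above for 1 (4.35%), Tst, against 19.2%. Metabolic members had a median of -0.86 (6 of 7 lower), and members typical of stroma and blood one of -0.66 (4 of 6 lower). Without WT replicate 1 the members' median was 0.22, with 16 higher and 7 lower. This comparison and that of KO with WT share the WT libraries. The differences from WT in KO and in KO+DNMT3A were -1.05 and -1.47 for Ldha, -1.13 and -1.27 for Oat, -2.10 and -1.43 for Mgst1, and -1.16 and -1.74 for Fcgrt. With single libraries left out, the difference of KO+DNMT3A from WT ranged from -2.49 to -0.45 for Ldha and from -1.85 to -0.69 for Oat. For Mgst1 it ranged from -2.63 to -0.23, the latter without WT replicate 1.

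**Figure D5:**
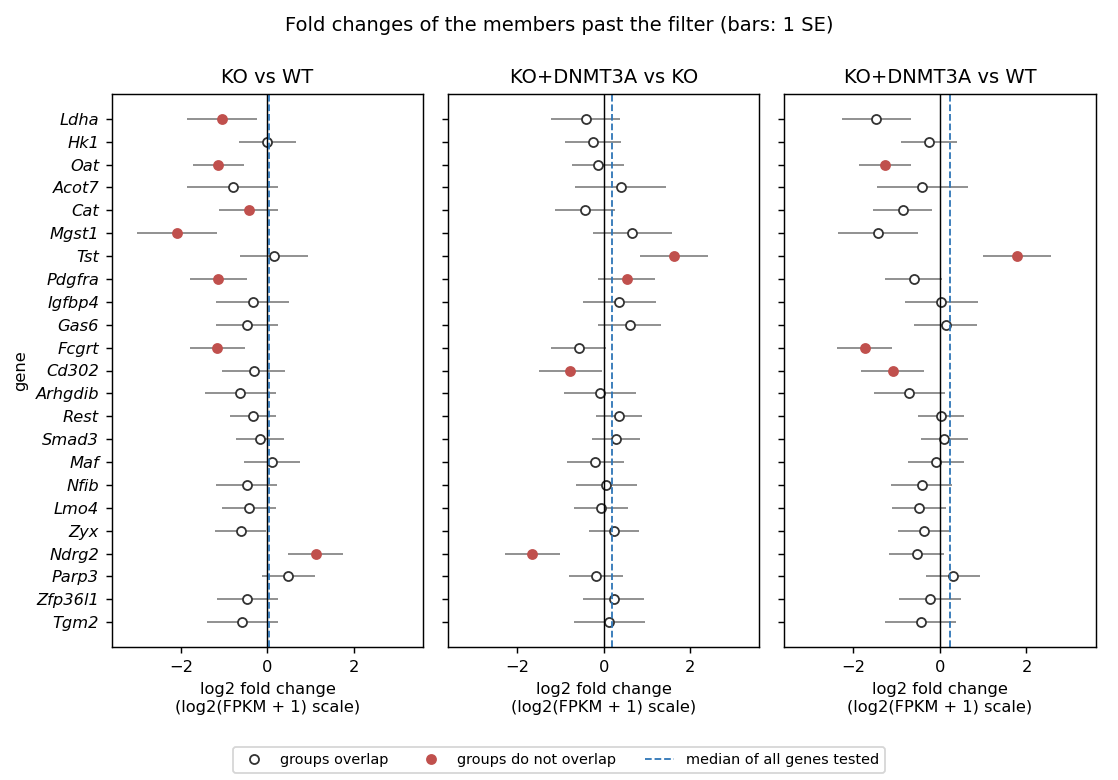
Log2 differences of the 23 tested members in the 3 comparisons (x axis, on the scale of log2(FPKM + 1)), with bars of 1 SE from limma and the genes in rows by role. In KO against WT the differences run from -2.10 (Mgst1) to 1.11 (Ndrg2), and none passed the adjusted threshold.

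Genes of the surrounding pathways were described from lists chosen for the members' functions, and no gene in them passed the adjusted threshold in any comparison. As background to the counts below, 52.7% of all tested genes had higher means in KO than in WT (median 0.03). In KO+DNMT3A 68.2% had higher means than in KO (median 0.19) and 64.8% than in WT (median 0.23). Of 14 tested glycolytic genes 10 had lower means in KO than in WT (median -0.42), and 12 had higher means in KO+DNMT3A than in KO (median 0.35). Eno1, encoding enolase, was at 14.03 and 22.6 FPKM in WT, at 7.67 and 7.33 in KO, and at 18.8 and 9.22 in KO+DNMT3A, so both KO libraries were the lowest. Tpi1, encoding triosephosphate isomerase, was at 36.2 and 66.9 FPKM in WT, at 30.4 and 21.7 in KO, and at 35.0 and 17.7 in KO+DNMT3A. The KO and KO+DNMT3A libraries were thus below WT for Tpi1, as they were for Oat. Many glycolytic genes have processed pseudogenes, which makes their levels uncertain.

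Of 21 tested genes of pyruvate, lactate and NADH handling, 10 had higher and 11 lower means in KO than in WT. In KO+DNMT3A 16 of the 21 had higher means than in KO, as did 68.2% of all tested genes. Gpd1, encoding the cytosolic enzyme of the glycerol phosphate shuttle by which beta cells move NADH electrons into mitochondria, was at 2.07 and 6.24 FPKM in WT, at 3.73 and 2.27 in KO, and at 10.02 and 7.93 in KO+DNMT3A. Both KO+DNMT3A libraries were above the other 4. Slc16a3 was at 1.40 and 2.70 FPKM in WT, at 0.80 and 0.88 in KO, and at 1.25 and 0.41 in KO+DNMT3A. Both of these groups lay below WT, but at levels of few fragments. In WT replicate 1 a single fragment on a 2 kb transcript is worth 2.04 FPKM.

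Around Rest, all 12 listed endocrine and neuronal genes that REST represses were tested. Higher means were found for 11 in KO than in WT, 11 in KO+DNMT3A than in KO and 11 in KO+DNMT3A than in WT (medians 0.36, 0.50 and 1.02). In the same order, groups did not overlap upward for 0, 2 and 3 of the 12, against 9.36%, 17.2% and 19.2% of tested genes. Snap25, a protein of the vesicle fusion machinery, was at 1.66 and 15.2 FPKM in WT, at 29.0 and 8.33 in KO, and at 30.2 and 15.3 in KO+DNMT3A, and Chga, encoding the granule protein chromogranin A, was 239 and 279 FPKM in the insulin-poor ones and 2501 to 3590 in the others. The part of cell make-up in these means was not tested. Around Yap1 and Smad3, 10 of 14 tested partners and targets had lower means in KO than in WT (median -0.32). Ccn1, a matricellular target of YAP, was at 10.1 and 4.58 FPKM in WT and at 2.08 and 2.54 in KO, and the TGF-beta receptor gene Tgfbr2 was 17.9 and 4.08 in WT and 3.66 and 2.68 in KO.

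Receptors for the secreted members were present in part. Igf1r, the receptor of Igf1, was 3.64 and 2.57 FPKM in the insulin-poor libraries and 21.7 to 40.8 in the others. Axl, a receptor of Gas6, was 14.8 and 16.5 FPKM in the insulin-poor libraries and 6.70 to 8.29 in the others. Cxcr4, the receptor of Cxcl12, was 0 to 4.14 FPKM. Of 16 tested genes of peroxide and thiol handling, the functional neighbours of Cat, Mgst1 and Tst, 11 had lower means in KO than in WT (median -0.20). In KO+DNMT3A 10 of the 16 had higher means than in KO (median 0.24), as did 68.2% of all tested genes (median 0.19).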

How the data were processed

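Poly-A libraries of islet RNA were made with a TruSeq kit (labels' protocols). What the authors deposited is FPKM per gene. The submitters' processing notes list StringTie 1.3.0, HISAT2 2.0.4, edgeR and mm10 without a role or order. Strand handling is not given in the sources used here. Positions come from GENCODE M21 on GRCm38 and promoter windows from RefSeq on GRCm38.p6. The table held 34745 genes, 478 of them without a symbol.

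The members and all lists were chosen with earlier results of these data known. The 13233 genes that reached 1 FPKM in 2 or more libraries were tested on log2(FPKM + 1) in a single limma 3.58.1 fit over all 6 libraries (R 4.3.3, trended and robust, two-sided, Benjamini-Hochberg at 0.05 per comparison), which was tested on simulated data. Fold changes on this scale understate those of low genes. Depth was inferred from single-transcript genes, where 84.2% to 91.5% of values up to 20 fragments were whole multiples of the value of 1 fragment within 0.01. Sums and ratios use FPKM, and Poisson intervals cover counting error only. Groups were called not overlapping where both libraries of a group lay above, or below, both of the other. Values in every library are given for Ldha, Slc16a1, Hk1, the other enzymes, Rest and members with groups that did not overlap. Of other pathway genes, those with the smallest p in a comparison were eligible to be named. A glycolysis gene was left out of its list after the values were seen and is not reported here. The alternatives were other pseudocounts, filters and scalings, fits without trend or with only the groups compared, a replicate block, and each library left out, as well as both insulin-poor libraries. Python 3.11.15, numpy 2.4.6, pandas 2.3.3 and matplotlib 3.10.9 were used.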

Additional observations from a re-analysis of the deposited data

How the results depend on the processing

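No member was called in any comparison under any alternative that was run, and the smallest adjusted p over all genes in limma was 0.131, for KO+DNMT3A against WT without WT replicate 2. Of the members' log2 differences under the alternatives, 1029 kept their sign and 114 changed it. With a filter of 5 FPKM 13 members were tested.

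The members' median log2 difference for KO against WT was -0.46. It ranged from -1.17 to 0.084 when single libraries were left out and was 0.06 without both insulin-poor libraries. Without a filter 3 of 34 members (8.82%) were higher with no overlap, against 9.36% of genes, and 7 of 34 (20.6%) were lower, against 8.23%. With quantile normalization 4 of 23 (17.4%) were lower with no overlap, against 11.2% of genes, and Ldha and Pdgfra were not among them.

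For KO+DNMT3A against KO the median of 0.06 became -0.069 with a pseudocount of 0.1, -0.082 with a filter of 5 FPKM, -0.11 with quantile normalization and -0.094 with median scaling. It ranged from -0.39 to 0.49 when single libraries were left out and was 0.15 without both. Members higher with no overlap numbered 0 of 13 with a filter of 5 FPKM (14.8% of genes) and 1 of 23 with quantile normalization (10.2%). Lower were 4 of 23 (17.4%) with quantile normalization (10.4% of genes) and 4 with median scaling (9.96%).

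For KO+DNMT3A against WT the median of -0.42 became -0.18 without a filter and -0.64 with median scaling, ranged from -1.06 to 0.22 when single libraries were left out, and was 0.22 without both. Members higher with no overlap numbered 3 of 34 (8.82%) without a filter (17.5% of genes) and 0 of 13 with a filter of 5 FPKM (16.5%). The cause of these changes was not tested.

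With the replicate number as a replicate block, 0 members were called and the medians were -0.46, 0.06 and -0.42. The numbers need not pair libraries: over genes, replicate differences correlated at -0.27 between KO and WT, 0.32 between KO+DNMT3A and KO, and 0.10 between KO+DNMT3A and WT. A crossed block with the KO numbers swapped, chosen after seeing the data, also called 0 members. Counts without overlap were not computed with libraries left out. Depth limits members under 1 FPKM, above all in WT replicate 1.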
